A study of Homo sapiens with 41 samples.

Results

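The comparison described here was between untreated human melanoma cell lines: A375 on one side, and Colo800 and UACC62 on the other. Its members were the vehicle-treated cultures, chosen by the cell line, origin and drug treatment in the labels. They were 7 of the 41 samples of the series: 3 of A375, 2 of Colo800 and 2 of UACC62. The series measured how melanoma lines and a lung adenocarcinoma line, H3122, respond to inhibitors of their driver oncogenes in culture and, for A375, in tumours grown in mice. All cells were seeded in growth medium and moved the next morning to medium with 2% serum containing vehicle or drug. A375 was grown in DMEM, and Colo800, UACC62 and H3122 in RPMI. Each is 1 established cell line. The 48 h cultures used beside the vehicle ones had received the BRAF inhibitor vemurafenib at 0.1 µM in A375 and at 1 µM in Colo800 and UACC62.

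Melanocytes make pigment under the control of MITF, a transcription factor that acts on genes for melanin synthesis and for the pigment organelle, the melanosome. SOX10 and PAX3 switch MITF on in this lineage. Melanoma cells can hold this programme or lose part of it, and lines with little MITF and much of the receptor kinase AXL are commonly called undifferentiated or dedifferentiated.

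Sequenced depth was 10666568 to 12652985 reads in A375, 14395570 to 14610564 in Colo800 and 12457092 to 13996702 in UACC62, over 23368 gene symbols. Levels are given in CPM, read counts scaled to a library total of 1000000 over these symbols. They are not scaled for gene length, so they compare samples and not genes. The lines were deposited in 3 separately normalised tables, and line, table and culture medium coincide, so their parts in a difference cannot be told apart and no test was run across lines. With 3 libraries against 4, an exact permutation test could not go below p = 0.0571. In its place, a gene was called by its mean log2(level + 1). It was called higher or lower in A375 when this differed by at least 2 from Colo800 and likewise from UACC62. A375 libraries also had to show no overlap with those of either line. The 4-fold line below is this difference of 2, so it is 4-fold in level + 1. At low levels the fold of the level itself is larger. A gene entered when its mean reached 5 CPM in at least 1 line, which 12352 of 23368 did. Replicates of Colo800 and of UACC62 differed by 1.71 and 1.29 times counting noise (chi-square per degree of freedom), and those of A375 by 16.6 to 29.5 times. The labels do not name separate cultures, so closeness within Colo800 and UACC62 may be technical. In bulk RNA, fewer cells with a transcript and less of it per cell cannot be told apart. A gene with no read in a line could still hold up to 0.0873 CPM in A375, 0.103 in Colo800 or 0.113 in UACC62 (3 reads over the line, counting error only). In A375, replicate 1 stood furthest from the others, with 201 genes at least 2-fold away, against 68 and 108 for replicates 2 and 3.

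SOX10, the defining factor of the lineage, was present in all 7 samples. It had levels of 768, 939 and 733 CPM in A375, 628 and 645 in Colo800 and 642 and 621 in UACC62. In the lung line H3122 its levels were 0 and 0.0673. Markers of other cell types were mostly near 0: of 39 keratinocyte, leukocyte, endothelial, fibroblast and lung epithelial markers, 30 in A375, 28 in Colo800 and 29 in UACC62 stayed under 1 CPM in every library. Their summed level was 121 to 189.9 CPM in A375, 138 to 139.6 in Colo800 and 108 to 112 in UACC62, and KRT10, a keratin also made outside skin, was at 75.7, 65.9 and 91.3 in A375. KRT14, LYZ and ROBO4 were called higher in A375 at levels of 3.19 to 24.7 (background 2.44%). They are of the keratinocyte, leukocyte and endothelial lists, of which 3, 1 and 1 members entered. Each reached a mean of 5 CPM in A375 alone, so it could be called higher or not at all. Against Colo800, KRT14 was just under the required log2 difference of 2 without A375 replicate 1 (1.994), and LYZ without A375 replicate 3 (1.92).

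A375 had 301 genes called higher than in both lines, 2.44% of the 12352 that entered, and 322 called lower, 2.61%. Against Colo800 alone 665 genes were higher (5.38%) and 643 lower (5.21%), a split that moved to 530 higher and 892 lower on the authors' own scale. Against UACC62 alone 581 were higher (4.7%) and 732 lower (5.93%). Colo800 and UACC62 differed from one another at 450 genes higher in Colo800 (3.64%) and 582 lower (4.71%), and on the authors' own scale at 552 and 529. By the same rule, 13 genes were called higher in A375 than in Colo800 and lower than in UACC62, and 10 the reverse. The median gene differed by 0.07 (log2) from Colo800 and 0.10 from UACC62.

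**Figure D1:**
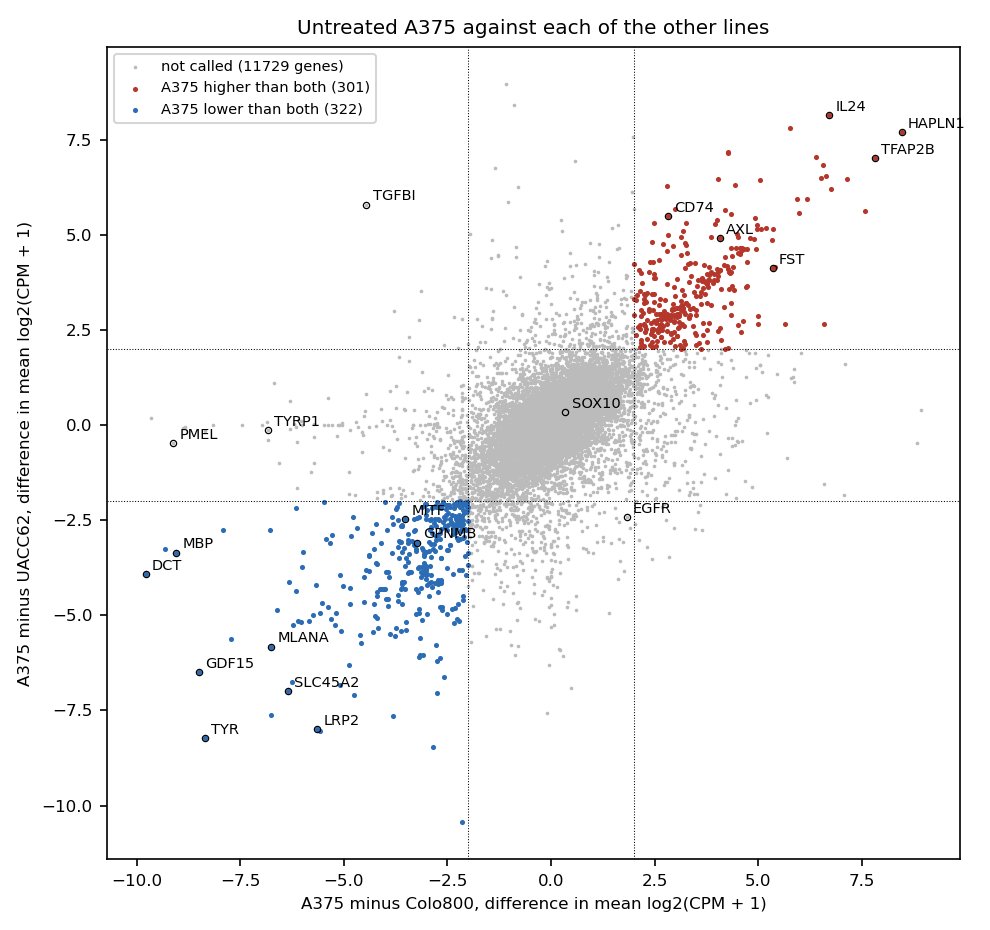
Difference in mean log2(CPM + 1) between untreated A375 and Colo800 (horizontal) and between A375 and UACC62 (vertical) for the 12352 genes that entered, with dotted lines at 2 and -2. The 301 genes called higher (red) and 322 called lower (blue) fill opposite corners, TYR lies beyond -8 on both axes, and PMEL and TYRP1 are far below 0 on the horizontal axis alone.

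MITF was lower in A375, with means of 40.1 ± 11.9 (SD, n = 3) CPM against 456 ± 9.36 (SD, n = 2) in Colo800 and 220.1 ± 0.474 (SD, n = 2) in UACC62. Its level was 51.6, 41.0 and 27.8 CPM in the A375 libraries, 463 and 449.6 in Colo800 and 219.8 and 220.4 in UACC62, a log2 difference of -3.52 against Colo800 and -2.47 against UACC62. No A375 library came near either line, although H3122 was lower still, at 10.6 and 7.87. The factors that switch MITF on differed less. SOX10 differed by 0.34 and 0.36 (log2) from Colo800 and UACC62, with each A375 library above all 4 others, and PAX3 by -0.89 and -0.55. PAX3, a paired-box factor, had levels of 25.2, 18.7 and 18.0 CPM in A375, 40.0 and 37.2 in Colo800 and 30.2 and 30.3 in UACC62, so it was below both lines by less than 2-fold.

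Of the 14 lineage factors and receptors listed, all of which entered, 1 was called higher (background 2.44%) and 2 lower (background 2.61%). The list's median log2 difference was -1.26 against Colo800 and -0.43 against UACC62, beside 0.07 and 0.10 over all genes. TFAP2B, an AP-2 transcription factor of the neural crest, was the member called higher. Its levels were 338, 314 and 159.7 CPM in A375, 0.205 and 0.0695 in Colo800 and 0.643 and 1.36 in UACC62. Its paralogue TFAP2A, which acts with MITF on pigment genes, went the other way, at 11.3, 12.7 and 11.6 in A375, 46.3 and 47.9 in Colo800 and 46.7 and 46.4 in UACC62, just short of the 4-fold line with log2 differences of -1.90 and -1.89. SNAI2, a zinc-finger factor of neural crest migration and of melanocytes, was the other member called lower beside MITF. It reached 4.25, 8.63 and 6.95 CPM in A375, 68.8 and 70.0 in Colo800 and 142 and 146 in UACC62. Among receptors, ERBB3, the neuregulin receptor, was above both lines, at 543, 661 and 509.9 CPM in A375, 220.1 and 219 in Colo800 and 192 and 210.0 in UACC62, less than 4-fold. EDNRB, the endothelin receptor of melanocytes, was below both, with log2 differences of -1.83 and -0.74. KIT, the receptor for stem cell factor, had no read in any A375 or UACC62 library and 7.53 and 7.02 CPM in Colo800, at least 83.3-fold above A375.

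**Figure D2:**
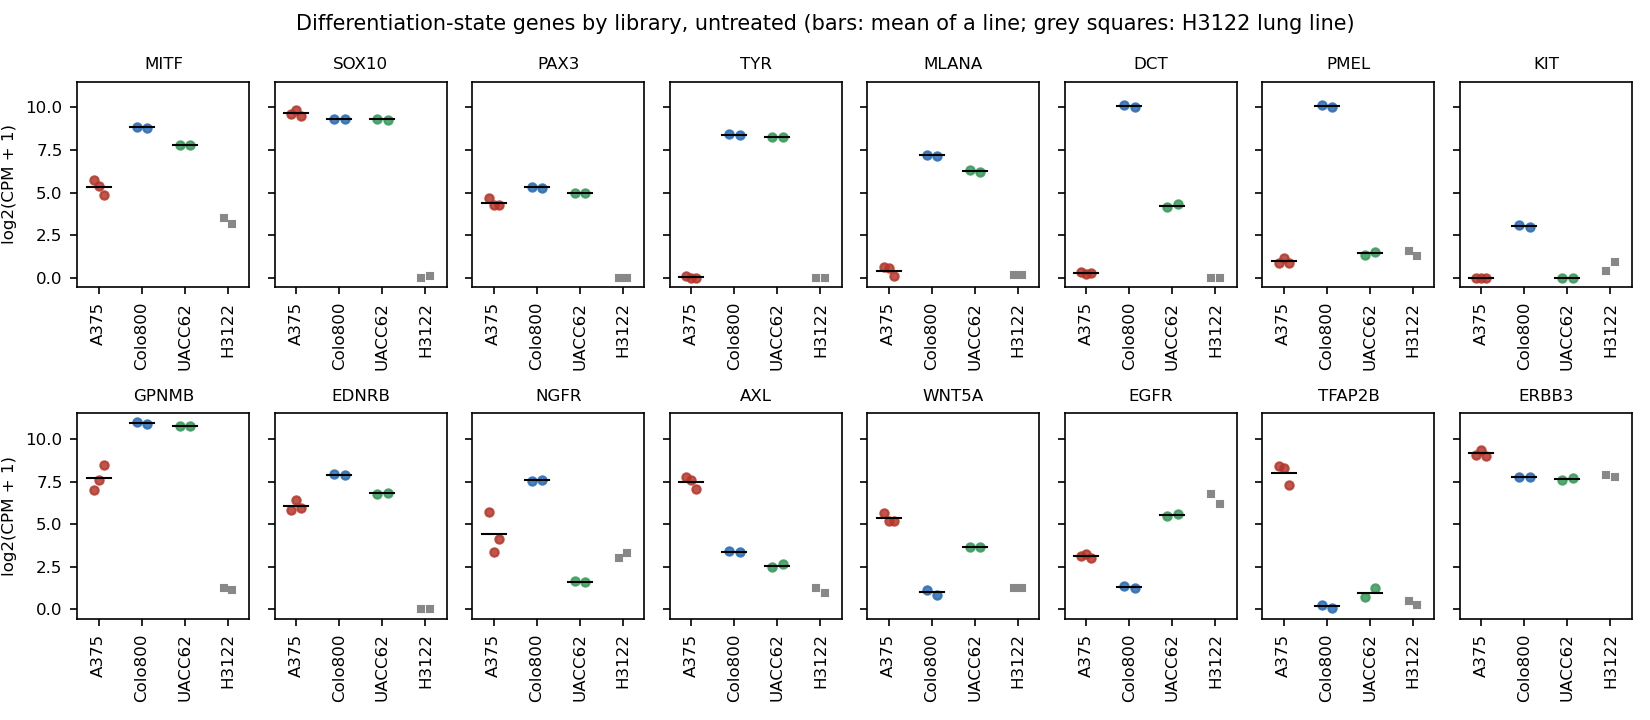
Level of 16 state genes as log2(CPM + 1) in each untreated library of A375, Colo800, UACC62 and the lung line H3122 (grey squares), with bars at the mean of each melanoma line. SOX10 is alike in the 3 melanoma lines, MITF is lowest in A375 among them, and TYR and MLANA lie near 0 in A375 and in H3122.

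Melanin synthesis and melanosome genes were mostly lower in A375. All 16 listed members entered, and 8 were called lower in A375 (background 2.61%) and 0 higher (background 2.44%). The median log2 difference was -4.32 against Colo800 and -2.27 against UACC62. Without the added 1, and with levels under the limit of 3 reads set at that limit, it was -5.80 and -2.91. The levels so set were those of TYR, with 1 A375 read, and ABCB5, with none. A375 lay below both lines for 14 of the 16, beside 4017 of all 12352 genes that entered. The exceptions were OCA2, a melanosomal transporter that lay above UACC62, and GPR143, a melanosomal receptor that was near 0 in both A375 and UACC62.

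TYR encodes tyrosinase, the rate-limiting enzyme of melanin synthesis. It gave 1 read in all 3 A375 libraries together, with levels of 0.0905, 0 and 0 CPM, against 343 and 328 in Colo800 and 310.4 and 307 in UACC62. H3122 had no TYR read. MLANA, a melanosome protein and the diagnostic antigen Melan-A, had 0.543, 0.469 and 0.079 CPM in A375, 148 and 142 in Colo800 and 77.9 and 72.2 in UACC62. The transporters SLC45A2 and SLC24A5, which set melanosome pH and ion balance, behaved alike. SLC45A2 was at 0.0905, 0.0938 and 0.079 in A375, 93.7 and 82.7 in Colo800 and 135 and 138 in UACC62. For SLC24A5 the levels were 4.98, 3.75 and 3 in A375, 194 and 189 in Colo800 and 166 and 166 in UACC62, and 15.1 and 16 in H3122. Neither gene overlapped between A375 and the other lines.

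MLPH and MYO5A carry melanosomes along actin. MLPH was at 1.09, 1.5 and 1.5 CPM in A375, 158 and 147 in Colo800 and 29.1 and 31.5 in UACC62. MYO5A, which many cells express, was lower by a smaller margin, at 117, 108 and 105 in A375 against 584 and 555 in Colo800 and 796 and 796 in UACC62. GPNMB, a melanosome glycoprotein, kept a sizeable level in A375, 126, 191 and 358 CPM with the highest in replicate 3, against 2010.4 and 1901 in Colo800 and 1735 and 1762 in UACC62. Their log2 differences against Colo800 and UACC62 were -6.02 and -3.73 for MLPH, -2.37 and -2.85 for MYO5A and -3.25 and -3.09 for GPNMB.

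A further subset separated Colo800 from the other lines. Of the 16 genes, 6 were at least 4-fold higher in Colo800 than in UACC62 (background 3.64%) and 0 lower (background 4.71%). PMEL, the fibril protein of the melanosome, was at 1144 and 1044 CPM in Colo800, 1.57 and 1.85 in UACC62 and 0.814, 1.22 and 0.869 in A375. TYRP1, a melanin enzyme, was at 167 and 149 in Colo800, 0.429 and 0.642 in UACC62 and 0.271, 0.188 and 0.79 in A375. In UACC62 and A375 the mean levels of each gene differed by less than 2-fold, and H3122 held 2 and 1.41 for PMEL. DCT, which acts between TYR and the later steps of the pathway, was intermediate in UACC62, at 16.6 and 18.9 CPM, between 0.271, 0.188 and 0.237 in A375 and 1120.3 and 1049.8 in Colo800. UACC62 thus held TYR, MLANA, SLC45A2, SLC24A5 and GPNMB within 2-fold of Colo800, and PMEL, TYRP1 and KIT near 0 as in A375.

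Promoters are shown because MITF binds the hexamers CATGTG and CACGTG, and several listed members carry the first. RefSeq (GRCh38.p14) gives 300 bases, from 250 before to 50 after the gene start. Capitals mark either hexamer, in either orientation (CATGTG reads CACATG on the other strand, and CACGTG reads the same on both). The 3 sequences are, 5′ to 3′ on the plus strand, TYR (chr11:89177625-89177924), SLC24A5 (chr15:48120740-48121039) and MLANA (chr9:5890639-5890938).
TYR: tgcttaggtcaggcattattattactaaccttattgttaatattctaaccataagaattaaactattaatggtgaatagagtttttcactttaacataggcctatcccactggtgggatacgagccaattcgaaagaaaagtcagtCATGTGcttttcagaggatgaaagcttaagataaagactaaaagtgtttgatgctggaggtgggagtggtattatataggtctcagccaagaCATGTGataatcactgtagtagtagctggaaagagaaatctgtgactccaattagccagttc
SLC24A5: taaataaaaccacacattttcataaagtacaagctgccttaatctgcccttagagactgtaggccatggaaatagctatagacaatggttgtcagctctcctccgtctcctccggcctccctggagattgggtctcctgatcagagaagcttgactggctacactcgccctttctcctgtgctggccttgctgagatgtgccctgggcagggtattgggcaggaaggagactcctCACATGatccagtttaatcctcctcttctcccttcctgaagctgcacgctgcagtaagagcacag
MLANA: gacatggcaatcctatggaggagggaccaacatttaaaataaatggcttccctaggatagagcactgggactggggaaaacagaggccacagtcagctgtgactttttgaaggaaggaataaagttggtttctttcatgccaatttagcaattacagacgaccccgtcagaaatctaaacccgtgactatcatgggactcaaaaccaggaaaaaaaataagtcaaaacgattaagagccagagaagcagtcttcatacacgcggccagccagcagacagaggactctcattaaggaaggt
The TYR promoter holds 2 copies of CATGTG, SLC24A5 holds 1 and MLANA none. Of the 16 members, 12 had an entry, with 18 promoters. CATGTG was in 7 of the 18 promoters (38.9%), those of GPNMB, TYRP1, TYR, DCT, OCA2, SLC24A5 and GPR143, beside 11.1% of all 35116 promoters of this length. CACGTG was in 1, of MLPH (5.56%, beside 7.26%). A hexamer in the sequence is a description and not a binding site.

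Other genes linked to MITF repeated the picture. All 18 listed members entered, and 8 were called lower in A375 (background 2.61%) and 0 higher (2.44%). Below both lines lay 17 of the 18, beside 4017 of all 12352 genes that entered. Their median log2 difference was -3.13 against Colo800 and -2.02 against UACC62. Without A375 replicate 1 the count called lower was 5, and with 5 in place of 1 added before the log2 it was 4. CAPN3, a calpain protease, was at 1.27, 0.938 and 1.58 CPM in A375, 189 and 173 in Colo800 and 37.9 and 38.0 in UACC62. GREB1, a hormone-response gene, was at 2.53, 6.09 and 3.71 in A375, 88.7 and 85.9 in Colo800 and 198 and 198 in UACC62. MBP, known as myelin basic protein, gave no read in A375, 534 and 529 CPM in Colo800 and 8.86 and 9.55 in UACC62, at least 105-fold above A375. TNFRSF14, a receptor of the tumour necrosis factor family, ST3GAL6, a sialyltransferase, CEACAM1, an adhesion molecule, and BEST1, a chloride channel, were called too. PPARGC1A, a coactivator of mitochondrial biogenesis, had levels of 0.181, 0.281 and 0.395 in A375, 56.5 and 56.5 in Colo800 and 4 and 4.42 in UACC62. TRPM1, IRF4 and BIRC7 were high in Colo800, at 82.0 and 73.5 CPM for TRPM1, 80.7 and 78.0 for IRF4 and 27.3 and 30.4 for BIRC7, and under 3 CPM in every library of A375 and UACC62.

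**Figure D3:**
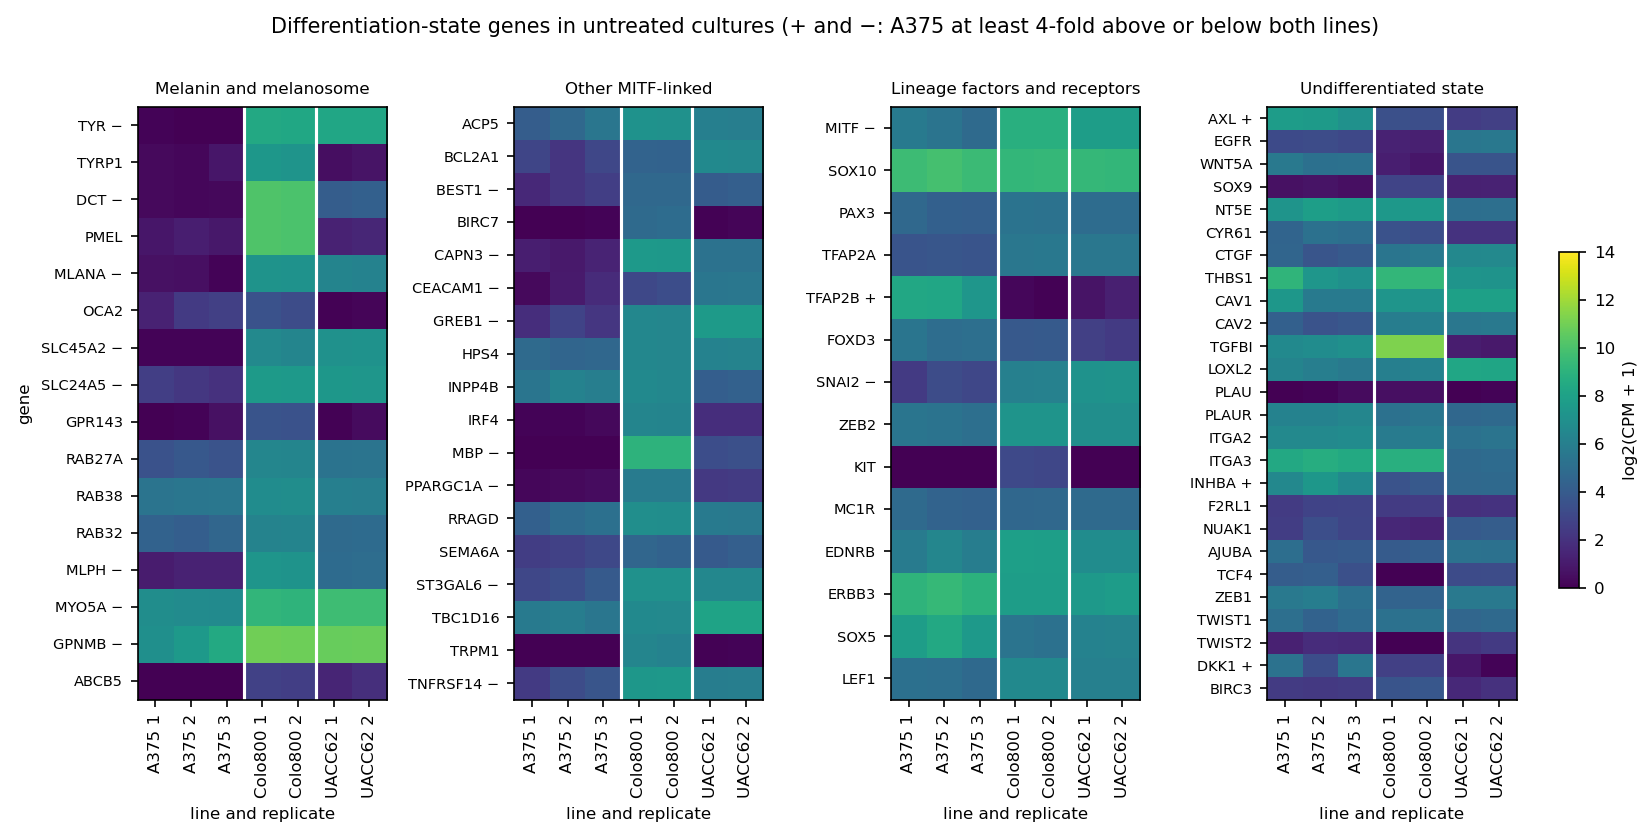
Level as log2(CPM + 1), by colour, of listed melanin and melanosome genes, other MITF-linked genes, lineage factors and receptors, and undifferentiated-state genes (rows) in each untreated library (columns). A375 is dark in most rows of the first pair of panels, and a plus or minus marks genes called higher or lower in A375.

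Genes of the neural crest-like state, an intermediate state with little pigment, were mixed. Among the 17 members 11 entered, with 1 called higher in A375 (background 2.44%) and 2 lower (2.61%). S100B, a calcium-binding marker of melanoma and glia, was among those lower, at 45.0, 47.2 and 33.3 CPM in A375, 345 and 339 in Colo800 and 589 and 597 in UACC62. SLITRK6, a neuronal membrane protein, was the member above both lines, at 51.7, 53.2 and 37.8 in A375, 8.01 and 8.68 in Colo800 and 4.93 and 4.98 in UACC62. NGFR, a receptor of neurotrophins that defines this state, ordered the lines differently, at 186 and 194 in Colo800, 52.3, 9.19 and 16.2 in A375 and 2.14 and 2.01 in UACC62. A375 replicate 1 held the highest of the A375 values, over 3 times the others.

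Genes of the undifferentiated state were divided. Of 27 members 25 entered, with 10 above both lines in A375 and 6 below both. Among all 12352 genes that entered, 4877 were above both and 4017 below. The list's median log2 difference was 0.19 against Colo800 and 0.63 against UACC62, beside 0.07 and 0.10 over all genes. The calls were 3 higher in A375 (background 2.44%) and 0 lower (2.61%). AXL was the member with the largest margin. Its level was 215, 194 and 133 CPM in A375, 9.58 and 9.45 in Colo800 and 4.64 and 5.22 in UACC62, a log2 difference of 4.08 against Colo800 and 4.91 against UACC62. INHBA, an activin subunit, was at 91.8, 168 and 99.7 in A375, 10.9 and 14.1 in Colo800 and 25.6 and 26.6 in UACC62. DKK1, a secreted WNT antagonist, was at 37.8, 9 and 44.4 in A375, 5.41 and 5.56 in Colo800 and 0.786 and 0.0803 in UACC62, and its difference of 2.01 (log2) against Colo800 stood on the 4-fold line. It was under that line without A375 replicate 1 (1.72), A375 replicate 3 (1.60) or Colo800 replicate 1 (1.99). INHBA was under it against UACC62 without A375 replicate 2 (1.84). On the authors' own scale neither INHBA nor DKK1 was called, and AXL was. WNT5A, a secreted WNT of invasive melanoma cells, was above both lines by 4.34 and 1.71 (log2), at 50.3, 35.0 and 36.0 CPM.

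Other defining members ordered the lines differently. EGFR, the epidermal growth factor receptor, was highest in UACC62, at 43.8 and 47.7 CPM, with 7.78, 8.53 and 7.11 in A375 and 1.57 and 1.39 in Colo800. SOX9 was at 0.543, 0.656 and 0.474 in A375, below the 6.23 and 6.25 of Colo800 and the 1.43 and 1.53 of UACC62. TGFBI, a secreted matrix protein, spanned the lines, at 2517 and 2502 in Colo800, 101, 111 and 129.6 in A375 and 1.14 and 0.963 in UACC62. ZEB1, a repressor of epithelial genes, was at 48.7, 60.9 and 34.4 in A375, 21.2 and 21.0 in Colo800 and 49.7 and 49.1 in UACC62, and A375 and UACC62 overlapped. So the A375 libraries combined low MITF and pigment genes and high AXL with SOX10 near the level of the other lines, SOX9 below both and EGFR between them.

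Receptor tyrosine kinases outside these lists gave 2 of 26 members called higher and 2 lower (backgrounds 2.44% and 2.61%), with 19 entering. PDGFRB, a platelet-derived growth factor receptor, was at 13.3, 23.5 and 12 CPM in A375, 3.42 and 2.85 in Colo800 and 1.71 and 0.803 in UACC62, on the 4-fold line against Colo800 (2.01, log2) and under it without A375 replicate 2 (1.73). ALK was at 11.6, 15.8 and 11.4 in A375, 0.753 and 0.764 in Colo800 and 0.714 and 0.963 in UACC62. ROR1, a WNT5A receptor, and MERTK, from the AXL family, were lower. ROR1 was at 2.44, 2.72 and 2.45 in A375, 14.7 and 14.5 in Colo800 and 47.9 and 49.3 in UACC62. For MERTK the levels were 0.724, 0.469 and 0.79 in A375, 11.4 and 8.61 in Colo800 and 7.5 and 8.67 in UACC62. MET, the hepatocyte growth factor receptor, was alike in A375 and Colo800, at 117, 120.2 and 121 in A375 and 115 and 114 in Colo800, and lower in UACC62, at 20.6 and 22.2.

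Target genes of the MAPK pathway, which mutant BRAF drives in melanoma, gave no call. Of 18 members 17 entered and 0 were called in either direction (backgrounds 2.44% and 2.61%). DUSP6, the ERK phosphatase induced by ERK itself, was at 350.0, 181 and 187 CPM in A375, 187 and 212 in Colo800 and 185 and 185 in UACC62. SPRY4, a feedback inhibitor, was at 476, 453 and 240.3 in A375, 279 and 276 in Colo800 and 608 and 632 in UACC62. ETV5, an ETS factor downstream of ERK, came close to a call on the lower side, with log2 differences of -2.12 and -1.93. Among 10 AP-1 subunits JUND was the 1 called higher (background 2.44%), at 107, 142 and 157 in A375, 22.9 and 25.0 in Colo800 and 22.4 and 23.8 in UACC62, and FOSL1 was above both lines by 1.48 and 2.04 (log2) without a call. All 21 mitosis and replication genes entered and 0 were called (backgrounds 2.44% and 2.61%). MKI67, the proliferation antigen, was at 378, 241 and 186 in A375, 224 and 200.1 in Colo800 and 87.2 and 84.9 in UACC62, and the highest of the A375 values was again that of replicate 1. G1 regulators (13 of 15 entering), S100 family genes (9 of 9) and housekeeping genes (12 of 12) gave 0 calls as well. At backgrounds of 2.44% and 2.61%, lists of such sizes, the MAPK list included, would hold few or no calls. Their 0 calls therefore do not set them apart. Of 19 glycolysis and hypoxia genes, all of which entered, 1 was called lower (background 2.61%) and 0 higher (2.44%). It was NDRG1, a hypoxia-induced gene of differentiation, at 80.5, 167 and 161 in A375, 1028 and 1073 in Colo800 and 2159 and 2136 in UACC62.

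MHC class II genes, which present antigen to helper T cells and are made by some melanomas, were above both lines in A375 for all 9 members. Among all 12352 genes that entered, 4877 were above both lines. Of the 9 members 3 were called higher (background 2.44%) and 0 lower (2.61%). The median log2 difference was 1.51 against Colo800 and 2.49 against UACC62. CIITA, the transactivator that switches this gene set on, was at 78.9, 50.8 and 37.8 CPM in A375, 7.19 and 7.99 in Colo800 and 6.07 and 6.18 in UACC62. CD74, the invariant chain, was at 2037, 2097 and 2126 in A375, 291 and 299 in Colo800 and 45.7 and 44.4 in UACC62. HLA-DRA, the alpha chain of HLA-DR, was at 672, 541 and 444 in A375, 78.7 and 74.7 in Colo800 and 100.2 and 92.7 in UACC62. H3122 had 0.483 and 0.942 for CD74 and 0 and 0.0673 for CIITA. HLA genes have near-identical copies, and reads of HLA-DRB1, at 125, 78.4 and 83.9 in A375 and 76.2 and 75.1 in UACC62, may be split between copies. The 8 leukocyte markers summed to 8.16 to 16.8 CPM in A375, 3.63 to 3.82 in Colo800 and 1.53 to 1.93 in UACC62, nearly all of it from LYZ in A375, a lysozyme gene at 10.5, 7.78 and 16.1. The other 7 were under 1 CPM in every A375 library, and PTPRC, which all leukocytes carry, was at 0, 0.0938 and 0.079. MHC class I genes gave 0 calls among 15 members, 14 of which entered, and interferon-stimulated genes 0 among 20, with 19 entering (backgrounds 2.44% and 2.61%).

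**Figure D4:**
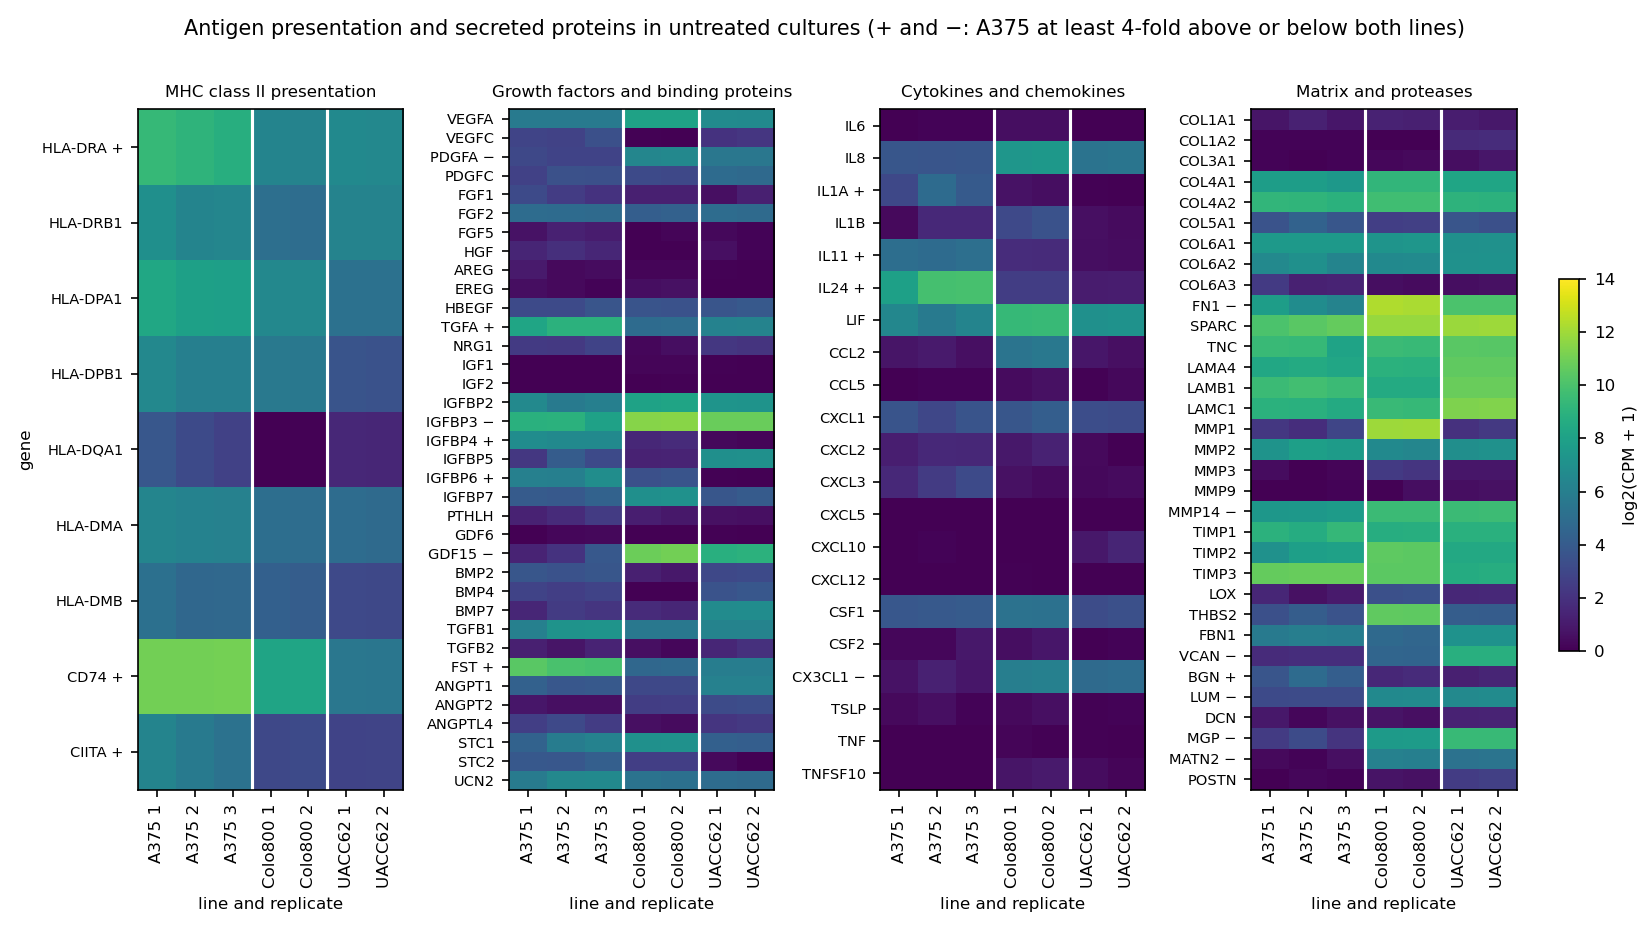
Level as log2(CPM + 1), by colour, of MHC class II genes, growth factors and binding proteins, cytokines and chemokines, and matrix genes and proteases in each untreated library. CD74, FST and IL24 are brighter in A375 than in Colo800 and UACC62, and FN1, GDF15, MGP and MATN2 are darker there than in Colo800 and UACC62.

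Secreted proteins went both ways. Among 21 cytokines and chemokines 10 entered, with 3 called higher and 1 lower (backgrounds 2.44% and 2.61%). IL24, an interleukin of the IL10 family first found in melanoma cells, was at 249.7, 929 and 975 CPM in A375, 4.93 and 4.72 in Colo800 and 1.07 and 1.2 in UACC62, and the low A375 value, of replicate 1, was still far above either line. IL11 was at 32.2, 29.0 and 33.7 in A375, 2.4 and 2.29 in Colo800 and 0.429 and 0.401 in UACC62, and IL1A at 7.24, 28.7 and 14.6 in A375, 0.616 and 0.417 in Colo800 and 0.0714 and 0 in UACC62. CX3CL1, a chemokine for monocytes and T cells, was lower, at 0.633, 1.41 and 0.79 in A375, 62.8 and 67.0 in Colo800 and 27.1 and 29.4 in UACC62. IL8 was below both lines as well, with log2 differences of -3.67 and -1.66, short of a call.

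Growth factors and their binding proteins gave 4 of 36 members called higher and 3 lower (backgrounds 2.44% and 2.61%), with 26 entering. FST, follistatin, the inhibitor that binds activin, was at 1378, 995 and 948 CPM in A375, 24.5 and 26.9 in Colo800 and 61.2 and 61.2 in UACC62. TGFA, an EGFR ligand, was at 303, 516 and 501 in A375, 29.2 and 31.4 in Colo800 and 73.5 and 75.8 in UACC62. IGFBP4 was at 111, 98.4 and 101 in A375, 1.98 and 2.36 in Colo800 and 0.214 and 0.161 in UACC62, and IGFBP6 was called higher with log2 differences of 2.80 and 6.28. These are binding proteins for insulin-like growth factors, and another of the family, IGFBP3, went the other way, at 470.3, 489 and 262 in A375, 2809.8 and 2954 in Colo800 and 1766 and 1798 in UACC62. Without A375 replicate 3 the difference of IGFBP3 against UACC62 was -1.89, under 4-fold. GDF15, a stress-induced member of the TGF-beta family, had the widest margin of the 3 lower members, at 1.63, 3.09 and 13.3 in A375, 1824 and 2059.8 in Colo800 and 454 and 514 in UACC62. PDGFA was at 7.06, 6 and 6.16 in A375, 84.5 and 92.3 in Colo800 and 46.1 and 45.4 in UACC62.

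Matrix genes and proteases leaned lower. Of 33 members 26 entered, 6 were called lower in A375 (background 2.61%) and 1 higher (2.44%). FN1, fibronectin, was at 218, 112 and 76.8 CPM in A375, 5223 and 4789.8 in Colo800 and 1064 and 1061 in UACC62. MGP, a matrix protein that inhibits calcification, was at 4.43, 8.34 and 3.32 in A375, 201 and 208 in Colo800 and 681 and 699.7 in UACC62, and MATN2, a matrilin, at 0.271, 0.0938 and 0.474 in A375, 69.3 and 64.4 in Colo800 and 37.7 and 40.4 in UACC62. LUM, a small proteoglycan, was at 7.96, 8.06 and 8.06 in A375, 99.1 and 104 in Colo800 and 95.2 and 105 in UACC62. VCAN, versican, was highest in UACC62, at 449.8 and 446, with 22.8 and 21.7 in Colo800 and 2.26, 2.53 and 2.53 in A375. MMP14, a membrane-bound collagenase, differed by -2.03 and -2.06 (log2), on the 4-fold line. BGN, biglycan, was the 1 member higher, at 11.9, 28.6 and 17.4 in A375, 1.92 and 2.36 in Colo800 and 1.36 and 1.69 in UACC62. Of 7 fibroblast markers 3 entered, with 0 called higher and 0 lower (backgrounds 2.44% and 2.61%), and 1 lay above Colo800. The 7 listed summed to 4.61 to 4.98 CPM in A375, 73.8 to 76.7 in Colo800 and 32.4 to 36.6 in UACC62. FAP, a surface protease, gave most of the sum in Colo800 and PDGFRL in UACC62. FAP was at 2.8, 1.88 and 2.29 in A375, 61.5 and 59.0 in Colo800 and 9.86 and 10.6 in UACC62. DPT had no read in any of the 7 libraries, and TCF21, PI16 and the collagen gene COL1A1 stayed under 2 CPM. The part of these markers in the matrix differences was not tested.

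Adhesion molecules and positional genes added fewer members. CDH13, a cadherin anchored by a lipid tail, was at 181, 319 and 272 CPM in A375, 1.03 and 0.556 in Colo800 and 2.07 and 1.61 in UACC62. NCAM1, a neural adhesion molecule, was lower, at 6.24, 5.63 and 7.9 in A375, 86.1 and 87.1 in Colo800 and 73.4 and 67.0 in UACC62, as was PCDH7 at 10.1, 4.22 and 3.87 in A375, 52.2 and 46.7 in Colo800 and 120.0 and 112 in UACC62. These 3 calls, 1 higher and 2 lower (backgrounds 2.44% and 2.61%), came from 21 listed genes, 12 of which entered. CDH1, the epithelial cadherin, was under 1 CPM in every library, and CDH2, the neural cadherin, was at 141, 135 and 99.9 in A375, 154 and 149 in Colo800 and 84.3 and 80.8 in UACC62, with A375 values overlapping those of Colo800. Of 39 HOX genes, which mark position along the body, 29 entered, with 4 called higher in A375 and 0 lower (backgrounds 2.44% and 2.61%). HOXB8 was at 27.7, 50.3 and 30.5 in A375, 2.74 and 2.01 in Colo800 and 4.29 and 5.46 in UACC62, HOXD9 at 13.8, 16.2 and 20.1 in A375, 2.53 and 2.29 in Colo800 and 0 and 0.161 in UACC62, and HOXC11 had no read in UACC62. Testis-type tumour antigens, with 10 of 11 members entering, gave 1 call, higher (background 2.44%). It was MAGEC2, at 197, 183 and 190.3 in A375, 2.86 and 2.81 in UACC62 and no read in Colo800. MAGE genes have near-identical copies, so their counts are uncertain.

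Outside the lists several genes had wide margins in A375. HAPLN1, which links hyaluronan to proteoglycans, was at 398, 513 and 237 CPM in A375, 0 and 0.0695 in Colo800 and 0.786 and 0.722 in UACC62. SOX11, a neural SOX factor, was at 121, 105 and 84.7 in A375, 0 and 0.0695 in Colo800 and 0.143 and 0.0803 in UACC62. PRDX2, a peroxiredoxin that most cells express, was at 235, 295 and 352 in A375, 3.76 and 4.93 in Colo800 and 0.429 and 0.161 in UACC62, and at 158 and 187 in H3122. PRDX2 was thus near 0 in Colo800 and UACC62 and not in A375 or H3122. GTSF1, a germline factor of piRNA silencing, and SLC17A9, a vesicular nucleotide transporter, had no read in Colo800 or UACC62. GTSF1 was at 80.5, 91.8 and 99.1 in A375, at least 875-fold above Colo800 and 798-fold above UACC62. ANPEP, aminopeptidase N, was at 144, 109 and 146 in A375, 0.753 and 0.417 in Colo800 and 0 in both UACC62 libraries. With TFAP2B, IL24, CDH13 and MAGEC2 above, PNMAL1, FBXO27, PAGE2, RAMP1 and GDA completed the 15 genes with the widest margins among those higher. This ranking left out genes under 20 CPM in A375 and genes with certain name patterns, such as LOC, LINC, orf and FAM symbols.

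On the lower side CHL1, a neural adhesion molecule, was at 0.0905, 0.188 and 0.079 CPM in A375, 122 and 117 in Colo800 and 223 and 215 in UACC62. LRP2, the endocytic receptor megalin, was at 0, 0.0938 and 0 in A375, 54.8 and 47.2 in Colo800 and 259 and 264 in UACC62, and MAP2, a neuronal microtubule protein, at 0.181, 0 and 0.079 in A375, 51.1 and 51.4 in Colo800 and 275 and 290.3 in UACC62. MYO10, an unconventional myosin of filopodia, was at 9.23, 10.8 and 6.64 in A375, 749 and 705 in Colo800 and 370.0 and 368 in UACC62. EPB41L3, RNASE1, SLC5A4, CD200, GPRC5B and LGI3 had the other wide margins. RNASE1, a secreted ribonuclease, had no read in A375, and LGI3, a secreted leucine-rich protein, was at 0.0905, 0.188 and 0.237 in A375, 82.3 and 78.3 in Colo800 and 40.7 and 40.4 in UACC62. TYR, MLANA, SLC45A2 and SLC24A5 of the melanin list and GDF15 completed the 15 genes with the widest margins among those lower, with the same name patterns left out.

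The same call rule was then applied to the 7 cultures given vemurafenib for 48 h, which were not used above. Doses differed between the lines. Among 12513 genes that entered, 398 were higher in A375 (3.18%) and 217 lower (1.73%). Of the 301 genes higher without drug, 188 were called again, 62.5% of the untreated calls and 47.2% of the 48 h calls. For the 322 lower genes the overlap was 144, 44.7% of the untreated and 66.4% of the 48 h calls. At 48 h 67 of the 301 and 11 of the 322 no longer had the level to enter, and 292 and 289 lay on the same side of both lines as before. TYR, MLANA, SLC45A2, SLC24A5, MLPH and DCT were among the genes called lower at both times. GPNMB, MYO5A, MITF, SNAI2 and S100B no longer reached 4-fold against both lines, and PMEL, RAB27A and TRPM1 newly did. MHC class II genes had 8 of 9 members called higher at 48 h, all but HLA-DRB1, beside the 3.18% of all genes. LRRC17, a leucine-rich repeat protein, reversed: it was at 0.452, 0.656 and 0.395 CPM in untreated A375 against 24.3 and 28.6 in Colo800 and 17.2 and 18.4 in UACC62, and after 48 h at 15.9, 12.1 and 10.3 against 1.07 and 1.02 in Colo800 and 0.961 and 1.43 in UACC62. It was singled out after its values were seen, as the 1 gene called in opposite directions.

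Within each table the drug response could be tested, with limma across all genes and Benjamini-Hochberg adjustment. The vehicle libraries are the same as above, so these changes are not independent of the untreated levels. In A375 24.3% of the 13816 genes tested rose and 25.6% fell, in Colo800 36% and 37.3% of 13451, and in UACC62 26.9% and 29.6% of 13649. Under quantile normalisation more genes rose than fell in Colo800 (5679 and 4261) and in UACC62 (4242 and 3505). Of the 16 melanin genes, 4 of the 12 tested rose and 1 fell in A375, 14 rose and 2 fell of 16 in Colo800, and 11 rose and 2 fell of 14 in UACC62. MITF rose in all 3 lines, by 1.56 ± 0.312 (SE) in A375 (log2, adjusted p = 0.00195, limma, n = 3 and 3), 0.21 ± 0.046 (SE) in Colo800 (adjusted p = 5.15e-04, limma) and 0.61 ± 0.102 (SE) in UACC62 (adjusted p = 0.00106, limma). It stayed lowest in A375, at 81.4, 169.9 and 145 CPM against 612 and 557 in Colo800 and 336 and 396 in UACC62.

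Pigment genes responded unequally in A375. DCT rose by 9.61 ± 0.249 (SE) (log2, limma adjusted p = 1.10e-08), from 0.271, 0.188 and 0.237 to 349, 242 and 236 CPM, every treated library above every untreated one. In UACC62 it rose by 6.07 ± 0.173 (SE) (limma adjusted p = 6.42e-08) and in Colo800 by 2.32 ± 0.0599 (SE) (limma adjusted p = 1.28e-16). GPNMB rose in A375 by 4.14 ± 0.42 (SE) (limma adjusted p = 2.86e-05) to 3614, 4199 and 4141 CPM, beside 6560.5 and 6582 in Colo800 and 9451 and 10166 in UACC62. TYR and MLANA were too low in A375 to be tested and were at 0, 0.191 and 0 CPM for TYR and 0.317, 2.2 and 0.925 for MLANA after treatment. In Colo800 TYR rose by 1.65 ± 0.0443 (SE) (limma adjusted p = 2.22e-16) and in UACC62 by 0.73 ± 0.086 (SE) (limma adjusted p = 1.36e-04). PMEL, near 0 in untreated UACC62, reached 84.3 and 73.7 there, a rise of 5.35 ± 0.154 (SE) (limma adjusted p = 6.42e-08), and was at 2.62, 2.68 and 1.34 in A375, where each treated library was above each untreated one but the change of 0.95 ± 0.395 (SE) did not pass (limma adjusted p = 0.0661).

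SOX10 changed by 0.06 ± 0.135 (SE) in A375 (limma adjusted p = 0.75), with treated and untreated libraries overlapping, and rose by 0.49 ± 0.0395 (SE) in Colo800 (limma adjusted p = 2.82e-09) and 0.84 ± 0.0832 (SE) in UACC62 (limma adjusted p = 4.71e-05). AXL fell in each line, with log2 changes of -0.91 ± 0.195 (SE) in A375 (limma adjusted p = 0.00296), -2.63 ± 0.204 (SE) in Colo800 (limma adjusted p = 1.39e-09) and -2.65 ± 0.44 (SE) in UACC62 (limma adjusted p = 9.67e-04). Its level at 48 h was 118, 87.6 and 108 CPM in A375, 1.37 and 1.96 in Colo800 and 0.437 and 1.35 in UACC62, so A375 remained above both lines. EGFR fell in UACC62, with a log2 change of -2.73 ± 0.232 (SE) (limma adjusted p = 1.90e-05) to 5.59 and 9.86, which then overlapped the 5.71, 7.36 and 8.53 of A375. SPRY4, the ERK feedback gene, fell in all 3, with log2 changes of -4.95 ± 0.236 (SE), -6.42 ± 0.0914 (SE) and -8.16 ± 0.11 (SE) in A375, Colo800 and UACC62 (limma adjusted p = 4.95e-07, 4.48e-20 and 3.35e-09). DUSP6 changed by -1.79 ± 0.267 (SE), -6.29 ± 0.0893 (SE) and -4.04 ± 0.108 (SE) in the same order (limma adjusted p = 3.03e-04, 4.48e-20 and 5.36e-08). At 48 h it was at 67.9, 76.6 and 71.9 CPM in A375, 2.9 and 2.61 in Colo800 and 11.5 and 12.8 in UACC62. DUSP6, SPRY2 and ETV1 were called higher in A375 at 48 h (background 3.18%) and not before.

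MHC class II genes parted further under the drug. In A375 9 of 9 members rose (background 24.3%), in Colo800 8 of 8 tested fell (background 37.3%) and in UACC62 2 of 9 rose (background 26.9%) and 0 fell. CD74 changed by 1.11 ± 0.132 (SE) in A375 (limma adjusted p = 7.37e-05), by -1.65 ± 0.0475 (SE) in Colo800 (limma adjusted p = 6.00e-16) and by 0.18 ± 0.107 (SE) in UACC62, which did not pass (limma adjusted p = 0.181). Its levels at 48 h were 4570.0, 5389.7 and 4892 CPM in A375, 99.0 and 109 in Colo800 and 53.1 and 58.1 in UACC62. MGP closed its gap: it rose by 6.63 ± 0.471 (SE) in A375 (limma adjusted p = 3.65e-06), to 505, 647 and 505 CPM, while Colo800 was at 154 and 148 and UACC62 at 823 and 734. These differences between lines in response were not tested, since tables and doses differ.

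**Figure D5:**
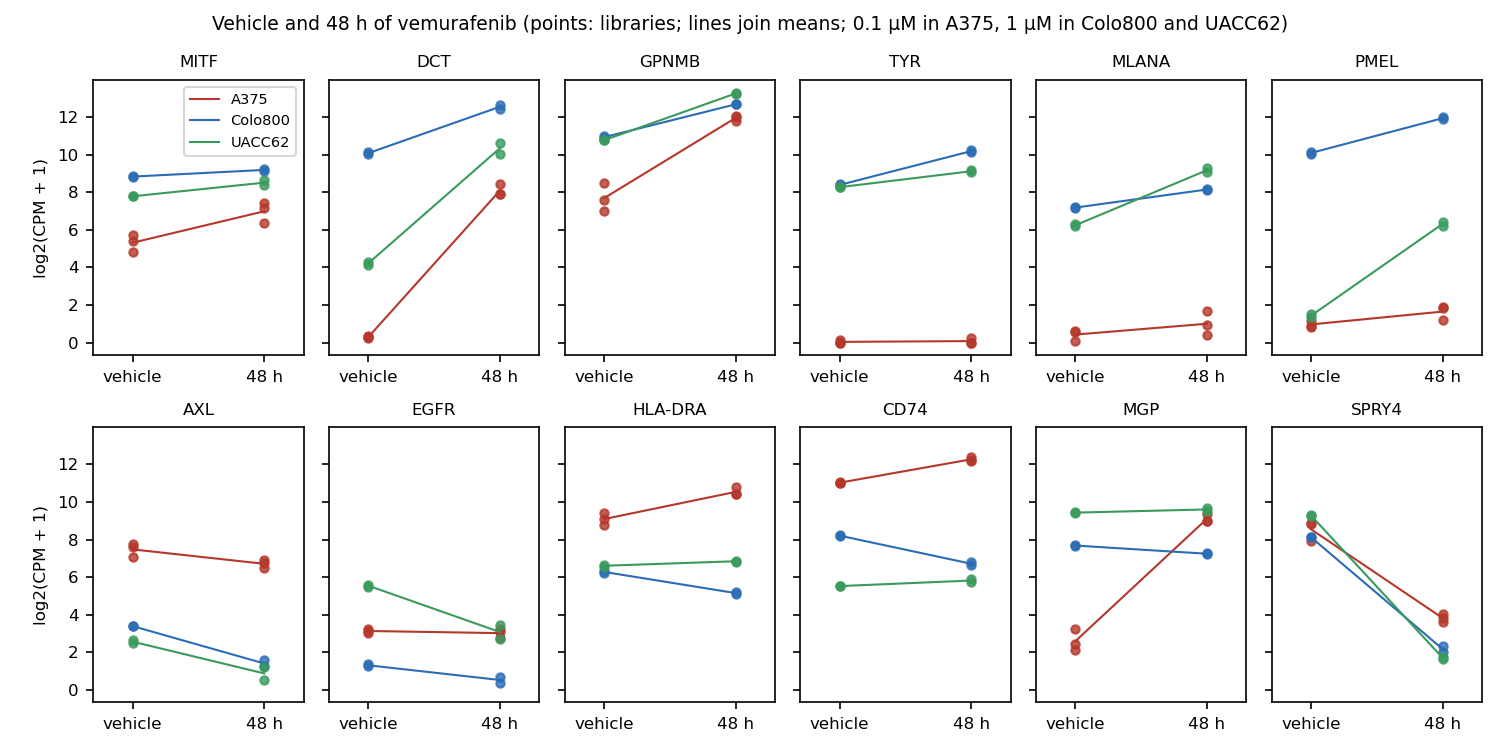
Level as log2(CPM + 1) of 12 genes in vehicle and after 48 h of vemurafenib (0.1 µM in A375, 1 µM in Colo800 and UACC62); points are libraries and lines join the means of each line. DCT and GPNMB climb towards the other lines in A375, TYR and MLANA stay near 0 there, and CD74 and HLA-DRA move up in A375 and down in Colo800.

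A375 grown as tumours in mice gave the lineage genes another set of samples, 4 vehicle-treated tumours measured as ribosome-bound RNA and so by another method. TYR had no read in any of them and MLANA was at 0 to 0.469 CPM over the 4. MITF ran from 11.7 to 16.2 and SOX10 from 44.3 to 70.2. For TFAP2B the range was 90.7 to 111, and for AXL 10.4 to 33.2. SOX9, at 0.543, 0.656 and 0.474 CPM in untreated A375 culture, ran from 51.5 to 71.3 in the tumours. HAPLN1 and IL24, the leading genes in culture, were at 0.117 to 1.49 and 0.106 to 0.236 in the tumours. CD74 ran from 148 to 200.5. Origin, method and table coincide in this contrast, so they cannot be told apart.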

How the data were processed

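RNA of 7 untreated cultures was compared: A375 (n = 3), Colo800 (n = 2) and UACC62 (n = 2). Libraries were made with a TruSeq kit that does not mark strand, per the labels' protocols, so antisense and overlapping genes cannot be told apart. Each value is a signal per gene symbol: a read count that the authors scaled before depositing it. STAR 2.3.0e, HTSeq 0.5.4, DESeq 1.18.0, hg19 and mm9 appear in the submitters' processing notes, with no role given. Dividing by the smallest step of each column gave whole reads (100% of values within 0.1), which were scaled to a total of 1000000 (CPM) over 23368 shared symbols.

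Differences are of mean log2(level + 1), for genes with a mean of at least 5 CPM in at least 1 line. Vemurafenib was tested within each table with limma 3.58.1 (R 4.3.3) on log2(deposited value + 1), trend, genes with a mean value of at least 10, Benjamini-Hochberg adjustment. All 9 A375 culture libraries shared 1 fit. Since separate cultures are not named, p-values reflect variation among these libraries, possibly technical. A self-test on simulated counts was run for both procedures. Alternatives were the pseudocount, filter, scaling (TMM, median-of-ratios, quantile, the authors' own), each library left out, a replicate block, and edgeR 4.0.16 and DESeq2 1.42.0 on recovered reads.

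The members and 27 gene lists were chosen with earlier results of these data known. Genes named are the 15 per direction with the largest difference against the nearer line (at least 20 CPM on the higher side), up to 3 called members per list and direction, 23 state genes, and list members that show how a group divides. The 15 per direction were ranked after leaving out genes by name pattern. These were antisense, LINC, LOC, MIR, small RNA, ribosomal protein, pseudogene, histone, orf, KIAA, FAM and Y-linked symbols, and XIST. Gene families with near-identical copies (HLA, MAGE, protocadherins) are uncertain. A375R tumours were not used here. Values of some listed genes are not reported here.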

Additional observations from a re-analysis of the deposited data

Results flagged for a closer look

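Of the 18 genes examined one by one in the drug comparison, 3 moved in opposite directions in different lines, with no overlap between treated and untreated libraries in either line; the difference between lines was not tested, and doses differed. HLA-DRA changed by 1.31 (log2) in A375, by -1.29 in Colo800 and by 0.12 in UACC62. CD74 changed by 1.11 in A375, by -1.65 in Colo800 and by 0.18 in UACC62. MGP changed by 6.63 in A375 and by -0.58 in Colo800. Among the untreated A375 tumours, HLA-DRA in replicate 2 stood apart from the other 3, at 54.0 CPM against a median of 33.2 over the 4. Chance flags about 1 in 20 such groups of 4, and 10 genes were looked at in this way.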

How the results depend on the processing

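Adding 5 in place of 1 before the log2 gave 137 genes higher and 151 lower than in both lines, 291 and 346 against Colo800, 274 and 412 against UACC62, and 237 and 272 for Colo800 against UACC62; 16 list members were higher, and 72 and 65 untreated calls were met again at 48 h. A filter at 20 CPM gave 158 genes higher than in both lines, 372 higher than in Colo800, 336 higher than in UACC62, 339 lower in Colo800 than in UACC62, 18 list members higher, and 85 higher calls met again at 48 h. The first shrinks differences of low levels and the second leaves fewer genes to test, by construction. Of the named calls, 26 of 37 higher and 31 of 34 lower were kept with 5 added, 28 and 33 with the filter; ALK, PDGFRB, BGN, IL1A, HOXD9, HOXC11, KRT14, LYZ and MERTK were called under neither. The other counts stayed within 1.5 times, although the balance of higher and lower turned under some scalings: against Colo800 it was 629 and 703 with TMM, and on the authors' own scale 530 and 892, with 253 and 397 against both lines, 552 and 529 for Colo800 against UACC62, and 153 and 173 calls met again at 48 h. Leaving out 1 library gave 299 to 309 genes higher and 315 to 345 lower than in both lines. The authors' own scale moved the median difference against Colo800 to -0.24, kept 253 of the 301 higher calls and all 322 lower ones. Of the 71 called genes named, 33 of 37 higher (not INHBA, DKK1, PDGFRB or LYZ) and 34 of 34 lower kept their call on that scale.

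In the drug tests each alternative kept the count of calls within 1.5 times. Leaving out 1 library gave 5849 to 6418 calls in A375 (6903 with all), 9030 to 9362 in Colo800 (9858) and 5248 to 9872 in UACC62 (7707). The replicate block gave 8307 calls in A375, 9936 in Colo800 and 8104 in UACC62, and PMEL in A375 then passed (limma adjusted p = 0.047). Same-numbered vehicle and treated samples were not treated as pairs. Their deviations correlated at 0.40, 0.03 and 0.32 in A375, 0.03 in Colo800 and 0.02 in UACC62. Vehicle replicate 1 of A375 correlated at -0.326 and -0.261 with the other treated numbers. Vehicle replicate 3 of A375 correlated more with treated replicate 2 (0.365) than with its own number. With 2 replicates, the values of Colo800 and UACC62 cannot decide on pairing, so it was not settled. Apart from PMEL, the block changed no call of a gene named in the drug comparison. Without 1 library the change of SOX10 in A375 ran from -0.0187 to 0.156, below 0 without vehicle replicate 3 (-0.00188) or treated replicate 1, and that of MGP in UACC62 from -0.032 (without treated replicate 1) to 0.131; none of these passed. Genes under about 0.1 CPM, 3 reads over a line, are at the limit of this depth.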

Other observations

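Some called genes are neighbours in the genome. Genes that did not enter were skipped in this order (protein-coding genes in RefSeq, GRCh38.p14, with 11672 of the 12352 genes placed). Over runs of at least 3 neighbours, A375 was lower than both lines in HDHD1, STS and PNPLA4 on chromosome X, all with no read in any of the 3 untreated or 3 treated A375 libraries. HDHD1, a phosphatase, was at 28.3 and 27.2 CPM in untreated Colo800 and 25.6 and 24.3 in UACC62. STS, steroid sulfatase, was at 15.3 and 13.1 in Colo800 and 15.3 and 14.5 in UACC62, and PNPLA4, a lipase, at 8.21 and 7.57 in Colo800 and 48.2 and 46.1 in UACC62. The other lower run held SEMA6D, SLC24A5 and MYEF2 on chromosome 15. KRT80, KRT81, KRT8 and KRT18, keratin genes on chromosome 12, formed the run higher in A375. KRT8 was at 60.2, 71.5 and 80.4 in A375, 12.4 and 11.9 in Colo800 and 12.1 and 10.4 in UACC62.

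Clustered protocadherins, neuronal adhesion molecules, differed between Colo800 and UACC62. A run of 18 genes on chromosome 5, from PCDHA7 to PCDHB15, was at least 4-fold lower in Colo800 than in UACC62 (background 4.71%). Genes between them that did not enter were skipped. Some of the run entered through UACC62 alone, such as PCDHA13. It was at 4.79 and 5.38 CPM in UACC62, 1.1, 0.94 and 1.3 in A375 and 0.068 and 0 in Colo800. PCDHB16 was at 0.411 and 0.417 CPM in Colo800, 61.6 and 61.7 in UACC62 and 24.3, 31.4 and 24.4 in A375. A375 was not on the same side throughout. PCDHB3 was at 0.543, 0.75 and 0.79 in A375, 0.411 and 0.139 in Colo800 and 41.0 and 41.4 in UACC62. A cell-cycle inhibitor also divided the lines. CDKN2B had no read in any untreated or treated library of A375 or UACC62 and 171 and 180.3 CPM in untreated Colo800, 11.8 and 11.4 after 48 h of vemurafenib. CDKN2A, its neighbour, was under 5 CPM in each untreated line and so did not enter. It had no read in UACC62, 3.26, 3.84 and 3.32 CPM in A375 and 1.23 and 1.32 in Colo800. These genes were picked after their values were seen.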
